A study of Rattus norvegicus with 39 samples.

Results

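Cells that cannot fold the proteins in their endoplasmic reticulum, or that run short of amino acids, switch on a set of genes known as the endoplasmic reticulum stress and integrated stress responses. The 10 genes described here belong to them: the transcription factor genes Atf4, Ddit3 and Atf3, the ATF4 target genes Asns, Trib3 and Chac1, and the endoplasmic reticulum genes Hspa5, Xbp1, Herpud1 and Dnajb9. They were taken by name from the 14217 genes with a named probe set on the Affymetrix rat genome array, and all 10 were measured, by 12 probe sets of which Trib3 had 3.

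Rats aged 5 to 6 weeks were dosed, and 48 h later RNA of the left lateral liver lobe was measured, with 1 array per rat. ANIT (alpha-naphthylisothiocyanate, a compound that injures bile ducts) was given at 125 mg/kg in corn oil by mouth. DMN (dimethylnitrosamine, which hepatocytes turn into a DNA-alkylating agent) was given at 15 mg/kg in water by mouth, and NMF (N-methylformamide, a solvent toxic to liver) at 1000 mg/kg in saline by intraperitoneal injection. Caerulein, a peptide that drives pancreatic secretion, was given at 50 µg/kg in saline by intraperitoneal injection, and DNP (2,4-dinitrophenol, an uncoupler of mitochondria) at 15 mg/kg in water by mouth. Roziglitazone, as the labels spell the PPAR gamma agonist rosiglitazone, was given at 1000 mg/kg in methylcellulose by mouth. The labels number the arrays of a group as biological replicates; each compound group had 5 rats and the untreated control group 9, or 39 arrays in all; the expanded compound names are background and not from the labels, and the rats' strain is not given in the sources used here. Since the controls were untreated and had no vehicle, the effects of compound, vehicle and route cannot be told apart in comparisons with them. Levels are log2 of the deposited intensity, and a gene was called where its limma p, adjusted by Benjamini and Hochberg over all 14217 genes of a comparison, was under 0.05.

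As background, 3 sensors in the membrane of the endoplasmic reticulum detect unfolded proteins. PERK phosphorylates the translation factor eIF2 alpha, which slows protein synthesis in general but lets ATF4 be translated, and the kinases GCN2, HRI and PKR do the same in response to amino acid shortage, heme shortage and viral RNA. ATF4 is therefore regulated largely at translation, which arrays do not measure, and its target genes serve amino acid supply and, through CHOP (the product of Ddit3), cell death. The sensors IRE1, which splices Xbp1 mRNA, and ATF6 raise chaperones such as BiP (the product of Hspa5) and parts of the machinery that removes misfolded proteins.

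The promoters of 9 of the 10 genes were in the RefSeq promoter table (build GRCr8), which holds 250 bases before and 50 bases after an annotated start of each gene. The promoter of Atf3 was not in it. The windows of Herpud1, Dnajb9 and Asns lie inside the gene spans given below, and so not at the outermost end of the gene. Binding motifs named in the field were searched on both strands of the 33469 promoters of 300 bases, and 5 promoters that hold one are shown so that each match can be read beside its gene's values. The endoplasmic reticulum stress element (CCAAT and CCACG with 9 bases between them) was in 0.0657% of all promoters, with 2 of the 9 members, Hspa5 and Xbp1, among them. Element II (ATTGG and CCACG with 1 base between them) was in 0.0508%, and Herpud1 held it. The C/EBP-ATF element TGATGNAA was in 3.98%, and Trib3, Chac1 and Herpud1 held it, each as the reverse complement. Capitals mark these matches, whose first base lies at -43 from the start in Hspa5, -65 in Xbp1, -124 (element II) and -184 (C/EBP-ATF) in Herpud1, -21 in Trib3 and -167 in Chac1; a match is a description of the letters and not a measured binding site. The XBP1 core GACGTGG (2.32% of all promoters) and the cAMP response element TGACGTCA (1.83%) were in none of the 9 windows. The windows are chr3:38452766-38453065 on the plus strand for Hspa5, chr14:84604373-84604672 on the plus strand for Xbp1, chr19:10614658-10614957 on the minus strand for Herpud1, chr3:161275484-161275783 on the minus strand for Trib3 and chr3:126795881-126796180 on the plus strand for Chac1, each printed 5′ to 3′ along the gene.
Hspa5: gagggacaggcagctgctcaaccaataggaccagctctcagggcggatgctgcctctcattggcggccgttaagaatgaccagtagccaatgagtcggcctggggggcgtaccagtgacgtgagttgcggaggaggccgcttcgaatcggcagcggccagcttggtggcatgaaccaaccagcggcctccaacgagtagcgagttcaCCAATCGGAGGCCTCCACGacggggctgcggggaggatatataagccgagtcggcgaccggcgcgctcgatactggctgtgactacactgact
Xbp1: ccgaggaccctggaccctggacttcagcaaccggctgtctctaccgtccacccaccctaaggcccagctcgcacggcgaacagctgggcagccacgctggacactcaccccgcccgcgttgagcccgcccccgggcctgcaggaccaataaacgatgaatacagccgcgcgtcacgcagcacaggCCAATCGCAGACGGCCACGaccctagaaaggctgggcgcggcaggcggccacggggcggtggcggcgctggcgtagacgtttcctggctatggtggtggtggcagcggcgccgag
Herpud1: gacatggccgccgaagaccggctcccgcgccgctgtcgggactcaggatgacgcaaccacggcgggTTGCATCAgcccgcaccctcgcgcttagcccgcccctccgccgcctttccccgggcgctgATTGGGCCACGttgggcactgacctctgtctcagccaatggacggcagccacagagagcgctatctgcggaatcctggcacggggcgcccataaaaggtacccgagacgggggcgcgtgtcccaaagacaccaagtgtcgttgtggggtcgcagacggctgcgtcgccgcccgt
Trib3: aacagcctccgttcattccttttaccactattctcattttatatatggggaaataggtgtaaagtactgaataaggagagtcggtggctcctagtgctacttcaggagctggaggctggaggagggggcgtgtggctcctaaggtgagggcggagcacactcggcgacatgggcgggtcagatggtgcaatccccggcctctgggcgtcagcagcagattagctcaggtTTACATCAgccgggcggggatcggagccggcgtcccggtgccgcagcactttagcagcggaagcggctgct
Chac1: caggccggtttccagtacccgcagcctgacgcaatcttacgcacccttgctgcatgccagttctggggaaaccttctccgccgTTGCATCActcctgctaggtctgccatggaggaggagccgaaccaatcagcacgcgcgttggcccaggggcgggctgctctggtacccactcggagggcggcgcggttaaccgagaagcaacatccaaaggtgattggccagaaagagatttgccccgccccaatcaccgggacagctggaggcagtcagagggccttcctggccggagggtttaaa

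The tissue label held: the 9 measured hepatocyte markers each had a mean level at or above the 95.6th percentile of all genes. Many arrays were not closest to their own group over all genes. With each array's deviation from the mean of the other arrays set against those of the groups, ANIT 3 was most like the DMN group (r = 0.705, and 0.301 with ANIT). Roziglitazone 2 was most like ANIT (r = 0.802, and -0.303 with Roziglitazone). DMN 2 had a low r with every group mean (0.0034 with DMN). Its highest r, 0.120, was with Roziglitazone, a mean that included Roziglitazone 2. These 3 arrays were chosen to be left out together with earlier results known. Roziglitazone 1, control 5 and DNP 1 also had a negative r with their own group (-0.221, -0.086 and -0.0612). Only 15 of the 39 arrays correlated best with their own group. In 6 arrays, those 3 among them (DMN 3, NMF 3, DNP 1, Roziglitazone 1, control 4 and control 5), the 5′ probe set of GAPDH, a sign of RNA or labelling quality, was at 6.34 to 7.42, against 10.49 to 12.93 in the others. All arrays were kept, and calls of the 10 genes that changed without the first 3 or without the 6 low arrays are given beside the results.

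Against control, 4 of the 10 genes were called in ANIT livers (Atf3, Atf4, Asns and Trib3), 3 in DMN livers (Ddit3, Atf3 and Asns) and 2 in NMF livers (Asns and Trib3), all of them higher. Over all genes, 8.19% were called higher and 8.29% lower in ANIT, 5.87% higher and 4.53% lower in DMN, and 3.85% higher and 3.63% lower in NMF. The median log2 fold change of the 10 genes was 0.15 in ANIT, 0.43 in DMN and 0.37 in NMF, where that of all genes was -0.09, -0.06 and -0.05 in the same order. The ANIT count of 4 was 2 without ANIT 2, control 6 or control 8 and 1 without ANIT 5. The DMN count of 3 was 2 without DMN 1, DMN 3 or DMN 5, and it was 5 without DMN 2. The NMF count of 2 was 1 without NMF 1, 2, 3 or 5 or any of controls 1 and 3 to 8. Without ANIT 3, DMN 2 and Roziglitazone 2 together, 4 members were called in ANIT (Herpud1, lower, in place of Atf3), 5 in DMN (Hspa5 and Trib3 added) and 2 in NMF livers. Asns was called in all 3 of these comparisons, while the genes most closely tied to protein folding in the endoplasmic reticulum, Hspa5, Xbp1, Herpud1 and Dnajb9, were called in none of them. In Caerulein, DNP and Roziglitazone livers no member was called, and 0% of all genes were called higher and 0% lower by limma, although 541, 199 and 1044 genes and 1, 0 and 1 members had an unadjusted p under 0.05 in the same order of compounds. For each of the 10 genes, the arrays of every group overlapped those of the group next to it in the order of means.

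**Figure D1:**
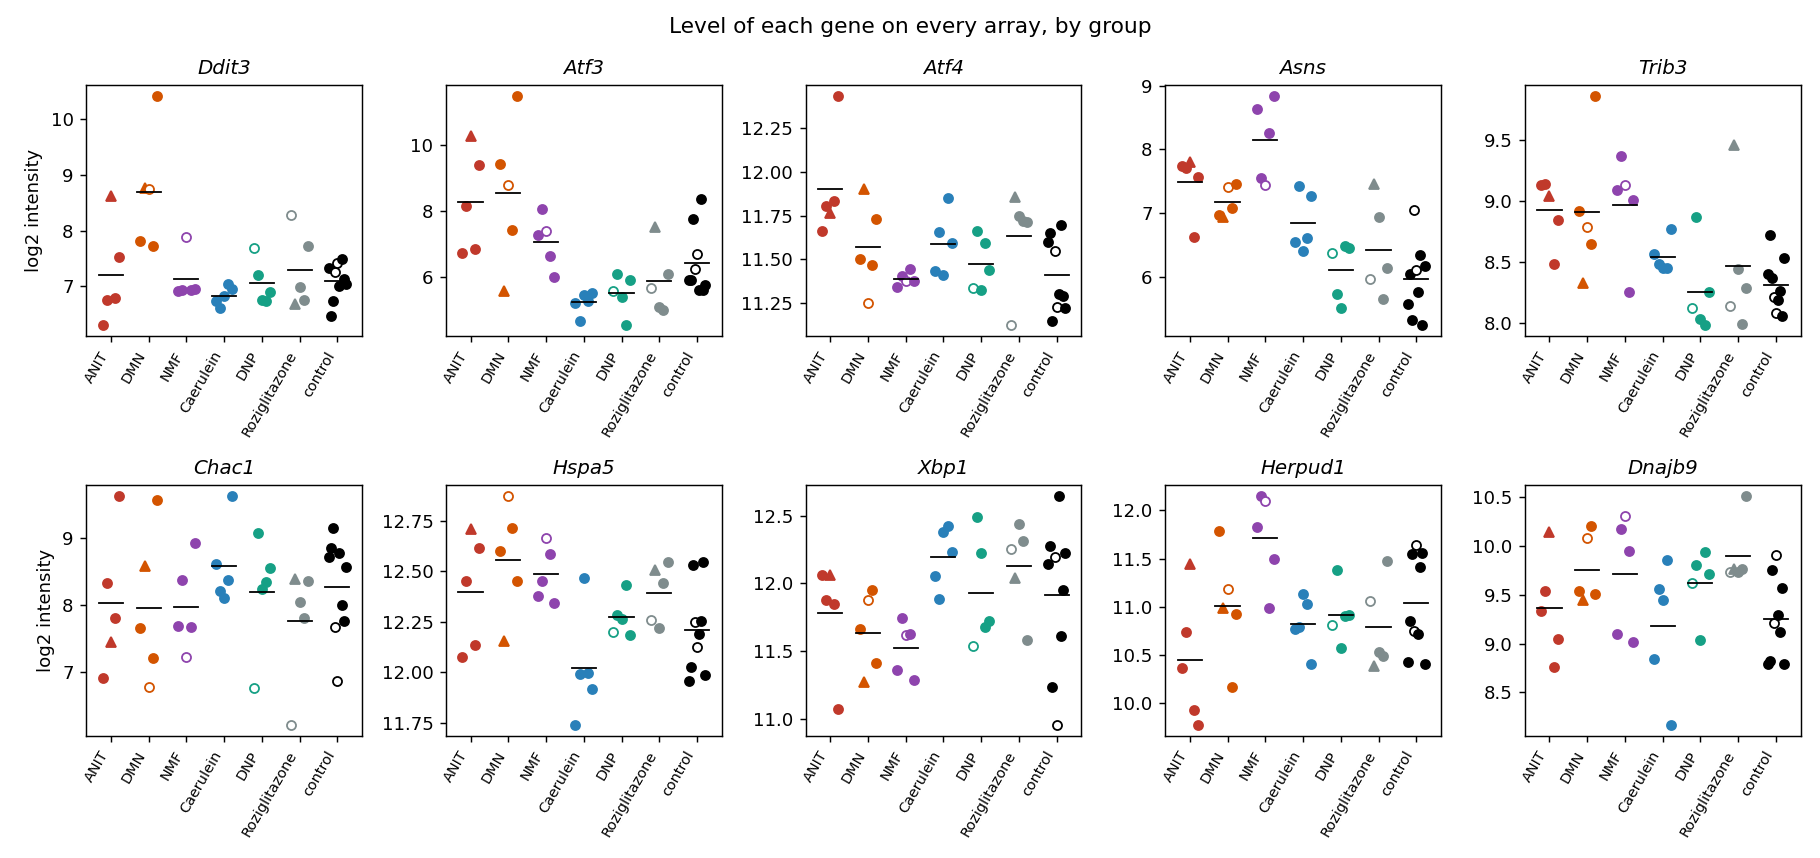
Level (log2 intensity, y axis) of the 10 genes on each of the 39 arrays by group (x axis), with the group mean as a black line; open symbols are the 6 arrays low in GAPDH 5′ signal and triangles the arrays ANIT 3, DMN 2 and Roziglitazone 2. Ddit3 lay above every control in all 5 DMN arrays, Asns above every control in all 5 NMF arrays, and Atf3 spread from 5.55 to 11.50 within the DMN group.

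**Figure D2:**
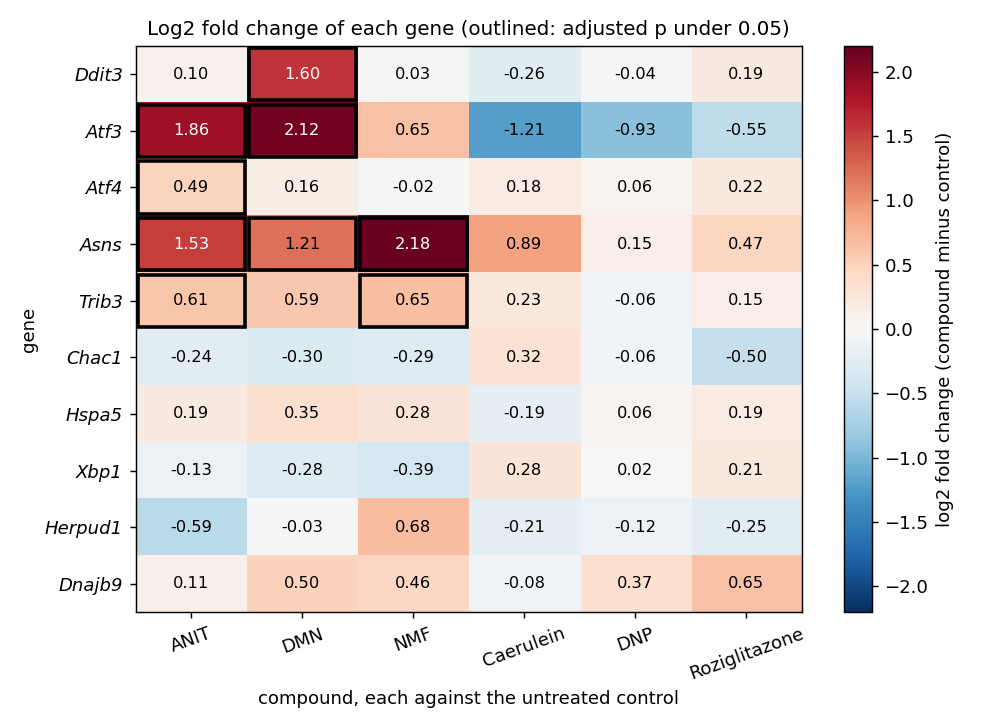
Log2 fold change (colour and printed value) of the 10 genes (rows) in each compound group against control (columns), with limma calls outlined. The 9 outlined cells lie in the ANIT, DMN and NMF columns and in the rows of Ddit3, Atf3, Atf4, Asns and Trib3, and all are positive.

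Asns (GRCr8 chr4:36752061-36769970, as for the positions of the other genes) encodes asparagine synthetase, the classic target of ATF4 in amino acid shortage. In NMF livers it was at 8.63, 7.55, 7.45, 8.25 and 8.83 on the 5 arrays, against 5.25 to 7.05 with a median of 6.06 in the 9 controls. Every NMF array lay above every control, and the rise was 4.53-fold (log2 fold change 2.18 ± 0.29 SE, adjusted p = 1.68e-06). In ANIT livers it was at 7.75, 7.70, 7.80, 6.63 and 7.57, 2.89-fold above control (1.53 ± 0.29, adjusted p = 0.00027), with only ANIT 4 inside the range of the controls. In DMN livers it was at 6.97, 6.94, 7.41, 7.08 and 7.46, 2.31-fold above control (1.21 ± 0.29, adjusted p = 0.00448), and 3 of these arrays lay above the highest control. These 3 calls held in all 12 alternative settings and with each array of the compared groups left out in turn. Asns averaged 6.85 ± 0.46 in Caerulein, 6.43 ± 0.74 in Roziglitazone and 6.11 ± 0.46 in DNP livers (SD, n = 5 each), against 5.96 ± 0.56 in controls (SD, n = 9). In Caerulein all 5 arrays were above the control mean, but the log2 fold change of 0.89 ± 0.29 had an adjusted p of 0.994.

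Asns also rose where the vehicle and the route were the same in both groups. It was higher in NMF than in Caerulein livers, both injected in saline, by 1.29 ± 0.32 on the log2 scale (adjusted p = 0.0117), and the arrays did not overlap; without NMF 5 the call was lost (adjusted p = 0.0518). It was higher in DMN than in DNP livers, both dosed by mouth in water, by 1.06 ± 0.32 (adjusted p = 0.0389), again without overlap. That second call was lost without DMN 1, 3, 4 or 5 or DNP 2 or 3 (adjusted p from 0.0557 to 0.108), without the arrays low in GAPDH 5′ signal (0.0573) and with every probe set tested (0.0641).

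Ddit3 (chr7:65001695-65006517) encodes CHOP, a transcription factor of the C/EBP family that promotes cell death under lasting endoplasmic reticulum stress. In DMN livers it was at 7.81, 8.77, 8.75, 7.72 and 10.41, against 6.46 to 7.50 with a median of 7.13 in controls. All 5 DMN arrays lay above all 9 controls, a rise of 3.03-fold (log2 fold change 1.60 ± 0.33 SE, adjusted p = 0.00113) that was called in all 12 alternatives and with each array left out. In ANIT livers Ddit3 was at 6.31, 6.76, 8.61, 6.78 and 7.52 and in NMF livers at 6.92, 6.93, 7.89, 6.94 and 6.96. The high ANIT value belonged to the array labelled ANIT 3 and the high NMF value to NMF 3, 1 of the arrays low in GAPDH 5′ signal, while the other arrays of both groups lay between 6.31 and 7.52. The mean was 7.20 ± 0.90 in ANIT, 7.13 ± 0.43 in NMF, 6.83 ± 0.17 in Caerulein, 7.06 ± 0.40 in DNP and 7.29 ± 0.69 in Roziglitazone livers (SD, n = 5 each), against 7.10 ± 0.34 in controls.

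The DMN level of Ddit3 was also set against the other compounds directly. It was 3.11-fold higher than in DNP livers (1.63 ± 0.37, adjusted p = 0.00462) and 2.96-fold higher than in NMF livers (1.57 ± 0.37, adjusted p = 0.00747). In ANIT it was 2.82-fold lower than in DMN livers (-1.50 ± 0.37, adjusted p = 0.0238). The ANIT call was lost without ANIT 1, 2, 4 or 5 or DMN 5 (adjusted p from 0.0574 to 0.089), and all 3 calls were lost when only the 2 groups compared entered the fit (0.0683 for DNP, 0.118 for NMF and 0.244 for ANIT).

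Some markers of neutrophils were also called higher in the DMN livers. Of 5 measured neutrophil markers, 3 were called higher there (Csf3r, S100a8 and S100a9), where 5.87% of all genes were called higher. The summed intensity of the 5 markers was 2543, 480, 4490, 2701 and 7122 on DMN 1 to 5, against 433 to 1309 in controls. DMN 5 was highest in both Ddit3 and the neutrophil sum, but DMN 2 had the lowest neutrophil sum of its group with Ddit3 at 8.77. The sum was 554 to 2926 in ANIT, highest in ANIT 3, and 415 to 974 in NMF livers, highest in NMF 3, the same arrays that were highest in Ddit3. NMF 3 is low in GAPDH 5′ signal, and so are DNP 1 and Roziglitazone 1. These 2 were also the highest of their groups in the sum (1029 and 1407) and in Ddit3 (7.69 and 8.27). The highest control sum, 1309, was that of control 4, another low array, with Ddit3 at 7.26. The part of RNA quality in these matches was not tested. The sum of 8 macrophage markers was 8544 to 18963 in DMN and 8668 to 13151 in ANIT livers, against 7493 to 10194 in controls. In both groups 2 of these markers were called higher and 2 lower. Over all genes 5.87% were called higher and 4.53% lower in DMN, and 8.19% and 8.29% in ANIT livers. No marker was listed at 0. In bulk liver a change in the number of cells of a type cannot be told apart from a change in RNA per cell, and the part of these cells in the Ddit3 result was not tested.

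Atf3 (chr13:105274103-105331653) encodes a transcription factor that is induced early by many kinds of stress. It varied most of the 10 genes from rat to rat within a group: its within-group SD of 1.20 log2 units stood at the 99.6th percentile of all genes, whose median was 0.36. In DMN livers it was at 9.44, 5.55, 8.80, 7.41 and 11.50, against 5.59 to 8.37 with a median of 5.90 in controls. The array labelled DMN 2 lay below every control and 3 of the other 4 above every control, and the mean was 4.35-fold higher (log2 fold change 2.12 ± 0.63 SE, adjusted p = 0.0237). In ANIT livers it was at 6.73, 8.16, 10.28, 6.84 and 9.39, 3.64-fold higher than control (1.86 ± 0.63, adjusted p = 0.037), with 2 arrays above every control, 1 of them ANIT 3. It was at 7.26, 8.07, 7.41, 6.63 and 5.98 in NMF livers (0.65 ± 0.63, adjusted p = 0.651).

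These Atf3 calls changed with the arrays and the settings used. The DMN call was lost without DMN 1, 3 or 5 (adjusted p = 0.0807, 0.0607 and 0.139), without the arrays low in GAPDH 5′ signal (0.0857) and when only DMN and control entered the fit (0.0964). With the replicate number added to the fit as a block the DMN call was lost as well (0.0579). The block fit used replicates 1 to 5 only and so left out controls 6 to 9. The parts of the block and of the missing controls in lost calls were not told apart. The ANIT call was lost without ANIT 2, 3 or 5 (adjusted p = 0.0617, 0.16 and 0.119), without control 1, 2, 6, 8 or 9 (0.0518 to 0.0607) and without ANIT 3, DMN 2 and Roziglitazone 2 together (0.0826). It was also lost without the arrays low in GAPDH 5′ signal (0.0517), with every probe set tested (0.0528) and with the replicate block (0.0808). Against DNP livers, where Atf3 averaged 5.49 ± 0.60, it was 8.28-fold higher in DMN livers (3.05 ± 0.71, adjusted p = 0.00588), a call lost only in the fit of the 2 groups alone (0.0765). In Caerulein livers Atf3 was at 5.19, 4.65, 5.45, 5.26 and 5.51, all below the lowest control, yet its log2 fold change of -1.21 ± 0.63 had an adjusted p of 0.994. The lowest Caerulein and DNP arrays, at 4.65 and 4.53, lay inside the range of the bacterial tryptophan control probe sets (3.36 to 4.89) and so near background. The mean in Roziglitazone livers was 5.86 ± 1.03, against 6.42 ± 1.01 in controls.

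Atf4 itself (chr7:113684681-113686739) changed by a small amount in ANIT livers. It was at 11.66, 11.81, 11.77, 11.83 and 12.43 there, against 11.15 to 11.69 with a median of 11.30 in controls, so 4 of the 5 arrays lay above every control. The rise was 1.40-fold (log2 fold change 0.49 ± 0.13 SE, adjusted p = 0.0096). It was called in all 12 alternatives but was lost without ANIT 5 (0.36, adjusted p = 0.072). In NMF livers Atf4 averaged 11.39 ± 0.04 with 5 arrays between 11.34 and 11.45, and the control mean was 11.41 ± 0.21, in the same NMF livers in which Asns rose 4.53-fold. ANIT arrays all lay above the NMF arrays, by 0.51 ± 0.15 in the mean (adjusted p = 0.0332), a call lost without ANIT 4 or 5 or NMF 1, 2 or 5 (0.0502 to 0.16). The means were 11.57 ± 0.25 in DMN, 11.59 ± 0.18 in Caerulein, 11.47 ± 0.15 in DNP and 11.63 ± 0.29 in Roziglitazone livers, with no call.

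Trib3 (chr3:161269939-161275533) encodes a pseudokinase that ATF4 and CHOP induce and that restrains both. On the probe set with the highest mean it was at 9.13, 9.14, 9.04, 8.48 and 8.85 in ANIT livers and at 9.09, 9.37, 9.13, 8.25 and 9.01 in NMF livers, against 8.06 to 8.72 with a median of 8.26 in controls. In each compound group 4 of 5 arrays lay above every control. The rise was 1.53-fold in ANIT (log2 fold change 0.61 ± 0.21 SE, adjusted p = 0.0397) and 1.57-fold in NMF (0.65 ± 0.21, adjusted p = 0.0473). The fold change in DMN livers, at 8.92, 8.33, 8.79, 8.65 and 9.86, was of similar size (0.59 ± 0.21) but missed the threshold (adjusted p = 0.0643); without DMN 2 it was 0.74 (adjusted p = 0.0204). The means were 8.55 ± 0.13 in Caerulein, 8.26 ± 0.36 in DNP and 8.47 ± 0.58 in Roziglitazone livers, against 8.32 ± 0.22 in controls, and the highest Roziglitazone value, 9.46, was that of Roziglitazone 2.

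The Trib3 calls lay close to the threshold. That in ANIT was lost when ANIT 1, 2, 3 or 5, or control 4 to 8, was left out in turn (adjusted p from 0.0514 to 0.0978). It was also lost after quantile normalization (0.113) and without the arrays low in GAPDH 5′ signal (0.0702). That in NMF was lost without NMF 1, 2, 3 or 5 or control 1, 3, 4, 5, 6, 7 or 8 (0.0577 to 0.155) and without the arrays low in GAPDH 5′ signal (0.16). Both calls were lost with the replicate block (0.0897 in ANIT and 0.0944 in NMF). The 3 probe sets of Trib3 had the same direction but different calls. With every probe set tested, 1370694_at rose by 1.09 ± 0.26 in NMF livers (adjusted p = 0.00876) and was not called in ANIT livers (0.39 ± 0.26, adjusted p = 0.338). In contrast, 1386321_s_at rose by 1.76 ± 0.50 in ANIT livers (0.0207) and was not called in NMF livers (1.42 ± 0.50, adjusted p = 0.119). The probe set that stood for the gene, 1370695_s_at, then had an adjusted p of 0.0554 in ANIT and 0.0752 in NMF.

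Chac1 (chr3:126796131-126799352), whose product degrades glutathione and which is an established ATF4 target, was called in no comparison. Its mean was 8.03 ± 1.03 in ANIT, 7.97 ± 1.12 in DMN, 7.98 ± 0.67 in NMF, 8.59 ± 0.61 in Caerulein, 8.21 ± 0.87 in DNP and 7.77 ± 0.90 in Roziglitazone livers, against 8.27 ± 0.73 in controls. The log2 fold changes against control ran from -0.50 to 0.32, with adjusted p of 0.742 or more; with array weights the DMN value was -0.93 (adjusted p = 0.0459). Its within-group SD of 0.85 stood at the 98.0th percentile of all genes, so a change of the size seen in Trib3 was smaller than the spread between rats. Asns and Chac1, both ATF4 targets, thus had different values in the same NMF livers: 2.18 ± 0.29 for Asns and -0.29 ± 0.45 for Chac1, a difference between genes that was not itself tested.

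Hspa5 (chr3:38453016-38457475) encodes BiP, the main chaperone of the endoplasmic reticulum and the usual gauge of its stress. It was at 12.60, 12.16, 12.87, 12.71 and 12.45 in DMN livers and at 12.38, 12.45, 12.66, 12.59 and 12.34 in NMF livers, against 11.96 to 12.55 with a median of 12.19 in controls. The groups overlapped, and the log2 fold changes of 0.35 ± 0.13 (adjusted p = 0.0847) and 0.28 ± 0.13 (adjusted p = 0.233) were not called. Hspa5 had the smallest within-group SD of the 10 genes, 0.22, at percentile 6.2 of all genes. Its DMN value passed the threshold without DMN 2 (0.45, adjusted p = 0.0222). Against Caerulein livers, where Hspa5 averaged 12.02 ± 0.27, the NMF mean was higher by 0.46 ± 0.15 (adjusted p = 0.0592), which passed in 7 of the 12 alternatives and without Caerulein 3 (0.57, adjusted p = 0.0204). The other means were 12.40 ± 0.28 in ANIT, 12.27 ± 0.10 in DNP and 12.39 ± 0.15 in Roziglitazone livers, against 12.21 ± 0.22 in controls.

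Herpud1 (chr19:10604360-10624168), which encodes a membrane protein that helps remove misfolded proteins from the endoplasmic reticulum, took opposite signs in ANIT and NMF livers. It was at 10.36, 10.74, 11.44, 9.93 and 9.77 in ANIT and at 11.83, 12.15, 12.10, 10.99 and 11.50 in NMF livers, and 10.40 to 11.64 with a median of 10.85 in controls. In ANIT it was 2.40-fold lower than in NMF livers (log2 fold change -1.27 ± 0.30 SE, adjusted p = 0.00664), with ANIT 3 and NMF 4 the arrays that overlapped. This difference was called in all 12 alternatives and with each array left out. Neither group was called against control, at -0.59 ± 0.26 for ANIT (adjusted p = 0.121) and 0.68 ± 0.26 for NMF (adjusted p = 0.118); without ANIT 3 the ANIT value passed, at -0.84 (adjusted p = 0.0282), and with array weights the NMF value, at 0.86 (adjusted p = 0.0201). The means were 11.01 ± 0.58 in DMN, 10.82 ± 0.28 in Caerulein, 10.92 ± 0.29 in DNP and 10.79 ± 0.46 in Roziglitazone livers, against 11.04 ± 0.50 in controls.

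Xbp1 (chr14:84604623-84609707) encodes the transcription factor whose mRNA IRE1 splices, and the array does not separate its spliced and unspliced forms. It averaged 11.78 ± 0.41 in ANIT, 11.63 ± 0.29 in DMN and 11.53 ± 0.20 in NMF livers, and 12.19 ± 0.22 in Caerulein, 11.93 ± 0.41 in DNP and 12.13 ± 0.34 in Roziglitazone livers, against 11.92 ± 0.54 in controls. All 5 NMF arrays, between 11.29 and 11.74, were below the control mean and below every Caerulein array, which lay between 11.89 and 12.42. Neither difference was called, at -0.39 ± 0.21 against control (adjusted p = 0.321) and -0.67 ± 0.24 against Caerulein (adjusted p = 0.105). The difference from Caerulein passed when only the 2 groups compared entered the fit (adjusted p = 0.0224). Dnajb9 (chr6:66997842-67007371), whose product is a co-chaperone of BiP, averaged 9.36 ± 0.52 in ANIT, 9.76 ± 0.36 in DMN, 9.71 ± 0.61 in NMF, 9.18 ± 0.67 in Caerulein, 9.62 ± 0.35 in DNP and 9.90 ± 0.34 in Roziglitazone livers, against 9.25 ± 0.42 in controls. Its highest value against control, 0.65 ± 0.26 in Roziglitazone livers, had an adjusted p of 0.638.

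The comparisons between compounds gave few further calls among the 10 genes. In DMN against DNP livers 3 were higher (Ddit3, Atf3 and Asns) and 0 lower, where 3.85% of all genes were called higher and 3.04% lower. In NMF against Caerulein livers Asns alone was higher, where 3.43% of all genes were higher and 2.06% lower, and without ANIT 3, DMN 2 and Roziglitazone 2 Atf3, Hspa5 and Herpud1 joined it (adjusted p = 0.0405, 0.039 and 0.0487). In ANIT against DMN livers 0 members were higher and Ddit3 was lower (1.46% and 1.07% of all genes). In ANIT against NMF livers Atf4 was higher and Herpud1 lower (3.76% and 2.86%), and in DMN against NMF livers Ddit3 was higher and 0 lower (3.0% and 1.66%). Asns was 0.97 ± 0.32 lower in DMN than in NMF livers, which was not called (adjusted p = 0.0799) but passed without NMF 3 (-1.14, adjusted p = 0.0403) and without the arrays low in GAPDH 5′ signal (-1.20, adjusted p = 0.0385). Trib3 was not called in DMN against DNP livers (0.65 ± 0.24, adjusted p = 0.0905) but passed without DMN 2 (0.80, adjusted p = 0.0315) or DNP 2 (0.80, adjusted p = 0.0476). In DMN against NMF livers Atf3 was 1.47 ± 0.71 higher (adjusted p = 0.327), which passed without DMN 2 (2.22, adjusted p = 0.0348). The 3 toxic compounds differed in dose, vehicle and route, and their comparisons with control share the 9 controls.

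The wider pathways were described through 8 lists with 94 measured genes. In ANIT livers 15 were called higher and 4 lower, in DMN livers 10 and 4, and in NMF livers 11 and 3. Over all genes 8.19% were called higher and 8.29% lower in ANIT, 5.87% and 4.53% in DMN, and 3.85% and 3.63% in NMF livers. The lower counts of the 94 genes were not above these shares, beside which the counts of single lists below are also to be read. The median log2 fold changes of the 94 genes were 0.09, 0.09 and 0.12 (all genes -0.09, -0.06 and -0.05). Without ANIT 3, DMN 2 and Roziglitazone 2 the called genes were 19, 17 and 14. In Caerulein, DNP and Roziglitazone livers none was called, as for all genes. The ANIT count of 19 was 12 without ANIT 2 or without ANIT 5, the DMN count of 14 was 9 without DMN 1, and the NMF count of 14 was 5, 9, 6 and 9 without NMF 1, 2, 4 and 5. The lists overlap in function with the members but hold none of them.

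**Figure D3:**
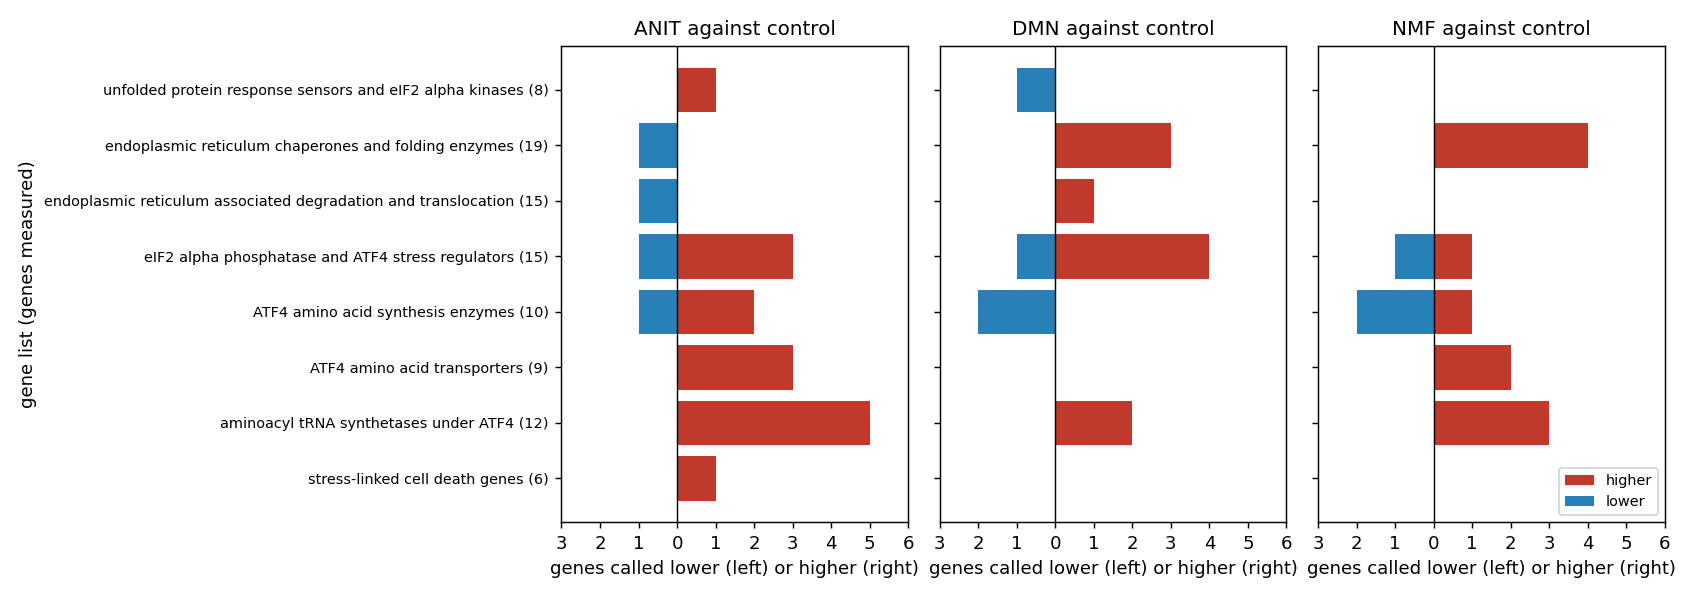
Number of genes called higher (right, red) or lower (left, blue) than control (x axis) in each of 8 lists (y axis, genes measured in parentheses), in ANIT, DMN and NMF livers. Transporters and tRNA synthetases were called only higher in all 3 panels, with 0 transporters in DMN. Of 19 folding enzymes 3 were called higher in DMN, 4 higher in NMF and 1 lower in ANIT livers. Over all genes 8.19% were called higher and 8.29% lower in ANIT, 5.87% and 4.53% in DMN, and 3.85% and 3.63% in NMF livers.

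Some folding enzymes of the endoplasmic reticulum were called higher in NMF and DMN livers, and 1 was called lower in ANIT livers, each against control. Over all genes 3.85% were called higher in NMF, 5.87% higher in DMN and 8.29% lower in ANIT livers. The ANIT count of 1 in 19 was not above that share. The list was not compared between compounds. Of 19 measured, 4 were called higher in NMF livers (Calr, Hsp90b1, Pdia6 and Sdf2l1), 3 higher in DMN livers (Creld2, Dnajb11 and Ero1a) and 1 lower in ANIT livers (Sdf2l1), with list medians of 0.32 in NMF, 0.16 in DMN and -0.05 in ANIT. Sdf2l1, a partner of BiP, averaged 11.67 ± 0.10 in NMF livers, against 10.64 ± 0.32 in controls, a rise of 1.03 ± 0.17 on the log2 scale (adjusted p = 6.08e-05), and 10.10 ± 0.11 in ANIT livers (-0.55 ± 0.17, adjusted p = 0.022). The ANIT fall was lost without ANIT 2 or 5 (0.0569 and 0.0576), without the arrays low in GAPDH 5′ signal and with each array centred on its median. Ero1a, an oxidase that forms disulfide bonds, rose by 1.38 ± 0.27 in DMN livers (adjusted p = 0.000788). Creld2 rose there by 0.73 ± 0.19 (0.00959, but 0.0607 without DMN 3) and the disulfide isomerase gene Pdia6 in NMF livers by 0.50 ± 0.14 (0.0192, but 0.051 without NMF 4).

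Few genes of the sensors and of degradation were called in the main fit, but the sensor count moved with the settings. In ANIT livers 1 of the 8 sensor and kinase genes was called higher, where 8.19% of all genes were. That count was 3 with each array centred on its median, 6 with array weights and 6 without the arrays low in GAPDH 5′ signal. The list median in ANIT livers was 0.53 (all genes -0.09). With array weights 4 of the 8 were called higher in DMN livers. Of 8 sensor and eIF2 alpha kinase genes, Eif2ak4, which encodes the amino acid sensor GCN2, was higher in ANIT livers (0.78 ± 0.17, adjusted p = 0.00135) and Eif2ak1, which encodes HRI, lower in DMN livers (-0.34 ± 0.11, adjusted p = 0.0306, lost without DMN 1, 3 or 4 at 0.0501 to 0.0793 and without the arrays low in GAPDH 5′ signal). Of 15 degradation and translocation genes, Selenos was higher in DMN livers (0.77 ± 0.16, adjusted p = 0.00181) and Sel1l, part of the HRD1 complex, lower in ANIT livers (-0.81 ± 0.25, adjusted p = 0.0218, lost without ANIT 2, 4 or 5 at 0.0516 to 0.0666). The Eif2ak1 call held in 8 of the 12 alternatives and the Sel1l call in 11. Of 6 cell death genes, Casp12 was higher in ANIT livers (1.24 ± 0.44, adjusted p = 0.0492), a call that was lost in 7 of the 12 alternatives and without ANIT 2, 3 or 5 or control 1, 3, 4, 5, 6, 8 or 9 (0.05 to 0.186).

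The genes of amino acid supply were called in both directions. Of 10 enzymes of amino acid synthesis, 2 were higher and 1 lower in ANIT, 0 and 2 in DMN, and 1 and 2 in NMF livers. Phgdh, the first enzyme of serine synthesis, rose by 1.69 ± 0.34 in ANIT (adjusted p = 0.000674) and 1.55 ± 0.34 in NMF livers (adjusted p = 0.00243), and by 0.86 ± 0.34 in DMN livers (0.109, not called). Psat1, the next enzyme of that route, was higher in ANIT livers by 0.97 ± 0.33 (adjusted p = 0.0394), a call lost without 10 of the 14 arrays in turn, namely ANIT 1, 2, 3 or 5 and control 1, 2, 3, 6, 8 or 9 (0.0537 to 0.0996), and without ANIT 3, DMN 2 and Roziglitazone 2 together. Gpt2, an alanine aminotransferase, fell in all 3: by 1.03 ± 0.22 in ANIT (0.00134), 0.85 ± 0.22 in DMN (0.01, but 0.0624 without DMN 5) and 0.73 ± 0.22 in NMF livers (0.0351, lost without NMF 1, 2, 4 or 5 or control 2, 3, 4, 5 or 8 at 0.051 to 0.143). Cbs, of the route from methionine to cysteine, fell in DMN (-0.61 ± 0.15, 0.00465) and NMF livers (-0.58 ± 0.15, 0.00782, but 0.063 without NMF 4). The Psat1 call in ANIT and the Gpt2 call in NMF livers each held in 9 of the 12 alternatives.

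All calls among transporters and tRNA synthetases were higher. The shares of all genes called higher and lower were 8.19% and 8.29% in ANIT, 5.87% and 4.53% in DMN, and 3.85% and 3.63% in NMF livers. At these shares lists of 9 and 12 genes could hold no lower call. Of 9 transporters 3 were called in ANIT, 0 in DMN and 2 in NMF livers. Slc3a2, the heavy chain that several amino acid exchangers share, rose by 0.79 ± 0.18 in ANIT (adjusted p = 0.00226) and by 0.59 ± 0.18 in NMF livers (0.0346, lost without NMF 1, 2 or 5 or control 6 or 8 at 0.0523 to 0.169). Slc1a4 rose by 1.92 ± 0.59 in ANIT livers (0.0231, but 0.0592 without ANIT 3), Slc7a5 by 0.55 ± 0.17 (0.0259, lost without ANIT 1, 2, 4 or 5 or control 9 at 0.0559 to 0.0941) and Slc6a9 by 0.84 ± 0.21 in NMF livers (0.00902, but 0.0699 without NMF 1). The replicate block also lost the calls of Slc1a4 (0.135) and Slc7a5 in ANIT and of Slc3a2 in NMF livers. Those of Slc7a5 and Slc3a2 were lost with only the 2 groups compared, and that of Slc3a2 with every probe set tested. Of 12 tRNA synthetases 5 were called in ANIT, 2 in DMN and 3 in NMF livers. Sars1, for serine, rose by 0.52 ± 0.13 (0.00652) in ANIT livers. Tars1, for threonine, rose there by 0.55 ± 0.14 (0.00775, but 0.0604 with the replicate block) and Yars1, for tyrosine, by 0.65 ± 0.17 (0.00656, but 0.057 without ANIT 5). Wars1, for tryptophan, rose by 0.72 ± 0.14 in DMN (0.000806, but 0.0593 with the mean of all its probe sets) and 0.74 ± 0.14 in NMF livers (0.000507). Wars1 is also known as an interferon-induced gene.

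Of 15 phosphatase and stress regulator genes, 3 were higher and 1 lower in ANIT, 4 and 1 in DMN, and 1 and 1 in NMF livers. The lower genes were Stc2 in ANIT and DMN livers and Nupr1 in NMF livers. Ddit4, which restrains the kinase mTOR, averaged 8.89 ± 1.39 in DMN livers, against 6.80 ± 0.61 in controls (2.09 ± 0.39, adjusted p = 0.00042). Its rise in ANIT livers (1.11 ± 0.39, adjusted p = 0.0465) was lost without ANIT 2, 3 or 5 or control 1, 2, 4, 5, 6, 8 or 9 (0.0516 to 0.156), and without ANIT 3, DMN 2 and Roziglitazone 2 together. Eif4ebp1, a repressor of translation, was higher in all 3: by 0.69 ± 0.18 in ANIT (0.00632), 0.54 ± 0.18 in DMN (0.0441, lost without DMN 1, 4 or 5 or control 1, 3, 4, 5, 6 or 8 at 0.0512 to 0.194) and 0.61 ± 0.18 in NMF livers (0.0245, lost without NMF 1, 4 or 5 at 0.0602 to 0.122). Gadd45a, also a p53 target, rose by 1.66 ± 0.46 in DMN livers (0.015, but 0.0666 without DMN 5). Cebpg, which encodes a partner of ATF4, rose by 0.75 ± 0.22 in ANIT livers (0.0176, but 0.0613 without ANIT 5 and 0.109 with the replicate block). The Ddit4 call in ANIT livers held in 7 of the 12 alternatives. That of Eif4ebp1 in DMN livers was also lost with quantile normalization, every probe set tested, array weights and only the 2 groups compared. In NMF livers the Eif4ebp1 call was lost with quantile normalization.

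Over the 39 arrays, the deviations from the group means gave a median Pearson r of 0.05 over the 45 pairs of genes, with 20 pairs below 0 and 4 above 0.5. These were Atf4 with Chac1 and Atf3 with Trib3 (both 0.59), Hspa5 with Dnajb9 (0.58) and Herpud1 with Dnajb9 (0.55). The lowest was Chac1 with Dnajb9 (-0.36). Each value describes arrays that share their scaling, and without the 6 arrays low in GAPDH 5′ signal some moved. That of Atf4 with Chac1 was then 0.46, that of Ddit3 with Atf3 0.54 (0.48 over all arrays) and that of Ddit3 with Chac1 0.41 (-0.01 over all arrays).

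**Figure D4:**
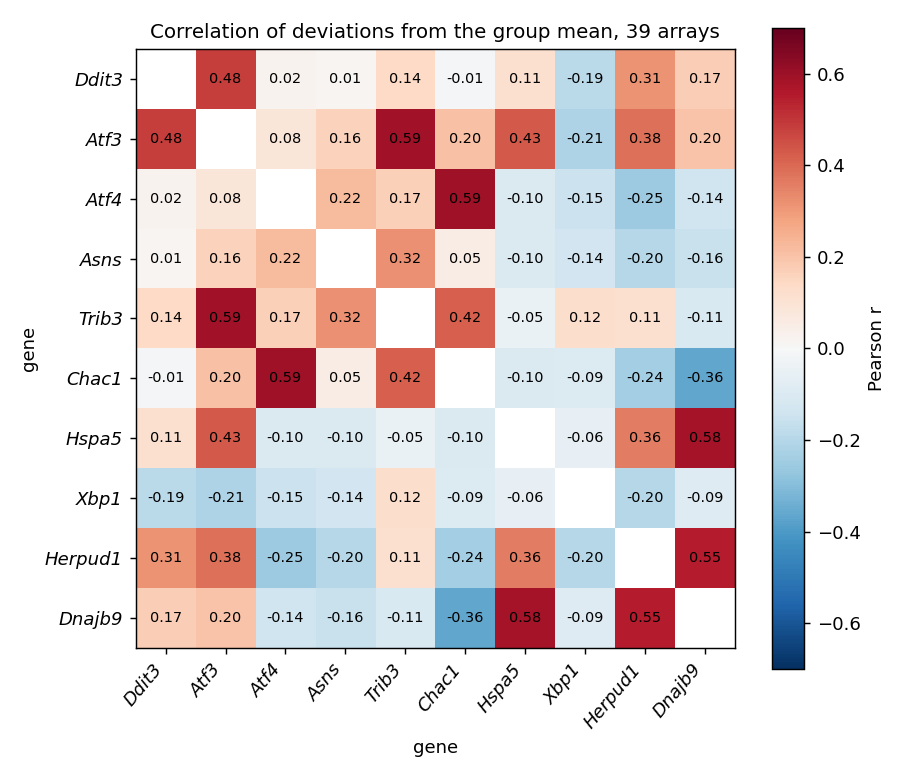
Pearson correlation (colour and printed value) between the 10 genes (rows and columns) of their deviations from the group mean over 39 arrays. The pairs Atf4 with Chac1, Atf3 with Trib3, Hspa5 with Dnajb9 and Herpud1 with Dnajb9 stand above 0.5, and the highest value of Xbp1 is 0.12, with Trib3.

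The genes most like each member over the 39 arrays, group differences included, were found by Pearson correlation and are given as a description. Phgdh (0.83), Snrpd3 and Mrto4 were most like Asns, and Hsp90b1 (0.86), the other large chaperone of the endoplasmic reticulum, Lrrc59 and Hltf most like Hspa5. For Atf3 they were Rhob (0.92), Rgs2 and Id1, for Ddit3 Stfa2l2 (0.84), Rbp7 and Klf4, and for Atf4 Ccdc86 (0.67), Sf3a2 and Nfat5. For Trib3 they were Pvr (0.82), Agtpbp1 and Maff, and for Chac1 Spsb1 (0.89), Oxt and U2af1l4. For Xbp1 they were C19h1orf198 (0.67), Pttg1ip and Retreg3, for Herpud1 Prelp (0.78), Slc25a33 and Nudt7, and for Dnajb9 Ufl1 (0.75), Cnot7 and Tbc1d15.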

How the data were processed

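Probe set intensities were deposited by the authors on a linear scale, from 5.4 to 23152.1; per the submitters' processing notes RMA and the affy package were used, no version is given, and no step back from RMA's usual log2 scale is stated. Array means lay between 348 and 363 and array medians between 77.8 and 108.7, so the deposited arrays did not share a common distribution. Here log2 was taken, which the plan had assumed to be done already. The platform annotation gave 1 symbol to 20826 of 31099 probe sets (57 were controls, 436 had several symbols and 9780 none), and 20758 symbols were updated through RefSeq. For the 4525 genes with several probe sets, that with the highest mean stood for the gene, which left 14217 genes with no filter on dim ones.

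limma 3.58.1 in R 4.3.3 (lmFit with 1 mean per group over all 39 arrays, eBayes) was tested on simulated data and fitted to all genes, with Benjamini-Hochberg adjustment within each comparison. The number of arrays limits the precision. Same-numbered arrays were taken as unpaired: in 1 of 21 pairs of groups all 5 pairs of their deviations correlated above 0.1. This criterion could not exclude that some of them were paired. Named were all 10 genes, up to 4 called genes per pathway list by smallest adjusted p, and the 3 most correlated genes per member. Other genes called in the counts of folding enzymes (Calr, Hsp90b1 and Dnajb11) and of stress regulators (Stc2 and Nupr1) were named after their values were seen. The members and lists were chosen with earlier results of these data known. Alternatives covered scaling, log offset, dim genes, probe sets, spread, array weights, groups fitted, replicate block and left-out arrays; that without 6 arrays low in GAPDH 5′ signal was added after seeing the data.

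Other lists of cell type markers were counted against control. Over all genes 8.19% were called higher and 8.29% lower in ANIT, 5.87% and 4.53% in DMN, and 3.85% and 3.63% in NMF. Of 9 hepatocyte markers 1 was higher in ANIT. Of 8 macrophage markers 2 were higher and 2 lower in ANIT, 2 and 2 in DMN, and 1 and 2 in NMF. Of 9 lymphocyte markers 0 were called in any comparison. Of 5 cholangiocyte markers 1 was higher and 1 lower in ANIT, 1 and 1 in DMN, and 1 and 0 in NMF. Of 9 stellate cell markers 1 was higher and 1 lower in ANIT, 2 and 1 in DMN, and 0 and 3 in NMF. Of 11 pancreatic acinar markers 5 were lower in ANIT, 1 in DMN and 2 in NMF.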

Additional observations from a re-analysis of the deposited data

Results flagged for a closer look

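In 7 of the 70 combinations of gene and group, the highest or lowest array stood apart from the rest of its group by Dixon's criterion, where chance gives about 1 in 20. Ddit3 was at 7.89 in NMF 3, against 6.92 to 6.96 in the other NMF arrays. Atf4 was at 12.43 in ANIT 5, against 11.66 to 11.83, and at 11.13 in Roziglitazone 1, against 11.72 to 11.86. Asns was at 6.63 in ANIT 4, against 7.57 to 7.80 in the other ANIT arrays. Chac1 was at 6.22 in Roziglitazone 1, against 7.81 to 8.39. Xbp1 was at 11.07 in ANIT 5, against 11.85 to 12.06, so that this array was the highest of its group in Atf4 and the lowest in Xbp1. Dnajb9 was at 10.51 in Roziglitazone 5, against 9.73 to 9.77. NMF 3 and Roziglitazone 1 are 2 of the 6 arrays low in GAPDH 5′ signal, and the part of RNA quality in these values was not tested.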

How the results depend on the processing

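Of the 110 fold changes of members, 17 were called, and none of these changed sign in an alternative or with an array left out. Among those not called, 20 changed sign in at least 1 alternative, none larger than 0.32 in size at first, and 27 with an array left out. Of the single-gene results under alternatives and with arrays left out, 2552 kept their side of the threshold, 70 lost it and 38 gained it; of the counts, 356 stayed within 1.5 times and 66 did not. With every probe set tested, members called were 2 in ANIT and 1 in NMF, and pathway genes in NMF 9; more features were then tested. Array weights gave 35, 25 and 25 pathway genes in ANIT, DMN and NMF, 6 members in DMN and 5 in NMF against Caerulein. NMF against Caerulein gave 2 members with eBayes trend and robust, with log2 of intensity plus 16 and without the 30% dimmest genes, and 3 with each array centred on its median. With only the groups compared, members were 0 in ANIT against DMN, 0 in DMN against NMF, 1 in DMN against DNP, 1 in ANIT against NMF and 4 in NMF against Caerulein. Without the 3 arrays that stood apart from their labels (ANIT 3, DMN 2 and Roziglitazone 2) they were 5 in DMN, 4 in NMF against Caerulein and 2 in DMN against NMF. Without the arrays low in GAPDH 5′ signal they were 2 in ANIT, 1 in NMF and 2 in DMN against NMF. The replicate block was fitted without controls 6 to 9. With it, members were 2 in ANIT, 1 in NMF and 2 in NMF against Caerulein, and pathway genes 11 in ANIT and 9 in DMN. Of 105 same-numbered pairs 58 correlated above 0.1. In 41 of these 105 the same number gave the best match, more often than an even choice among 5 arrays would give. All 5 pairs were above 0.1 in 1 of 21 pairs of groups, and the main fit left the numbers unpaired. That criterion asks for all 5 pairs at once, so it could not exclude that some same-numbered arrays were paired. Atf3 in ANIT and DMN (adjusted p = 0.0808 and 0.0579) and Trib3 in ANIT and NMF (0.0897 and 0.0944) were not called with the block. The causes of these moves were not tested.

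With each array left out in turn, members called were 1 to 4 in ANIT, 2 to 5 in DMN, 1 to 2 in NMF, 2 to 4 in DMN against DNP, 0 to 2 in NMF against Caerulein, 0 to 1 in ANIT against DMN, and 1 to 2 in both ANIT and DMN against NMF. Pathway genes called were 12 to 20 in ANIT, 9 to 16 in DMN and 5 to 15 in NMF. In Caerulein, DNP and Roziglitazone livers 0 were called in every setting.

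Scaling moved the balance of all calls. Centring turned the sign of 3 uncalled values of members: Atf4 in NMF (-0.02, then 0.07), Herpud1 in DMN (-0.03, then 0.07) and Xbp1 in DNP (0.02, then -0.04); quantile normalization turned 3 others. With each array centred on its median, the median of all genes shifted by 0.13 in ANIT, 0.10 in DMN, 0.16 in DMN against DNP and 0.13 in NMF against Caerulein. Genes called higher and lower were then 1667 and 627 in ANIT (1165 and 1179 without centring), 1047 and 339 in DMN (834 and 644), 734 and 309 in NMF (547 and 516), 932 and 171 in DMN against DNP (548 and 432), and 764 and 148 in NMF against Caerulein (488 and 293). Quantile normalization gave 457 and 532 in ANIT against NMF (534 and 406).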
